A study of Mus musculus with 8 samples.

Results

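A set of 81 genes, of the 12823 genes in the count table, was described here because their read counts were raised at least 3-fold in aggressive acute myeloid leukemia (AML) of the mouse. Membership was set by CPM (the read count of a gene scaled to a common library total), and required a mean of at least 2 CPM in aggressive AML, a mean at least 3 times that of new AML, and values in the 4 aggressive libraries that all lay above those in the 4 new libraries. Of the table, 84 genes (0.655%) met these conditions, and 3 of them (Etv4, Slc15a2 and Morc1) were left out by name. The difference between the groups therefore chose the genes, and every level and ratio of theirs in these 8 libraries is given as a description without a test.

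All libraries came from bone marrow progenitors that had been transduced with MLL-AF9, the fusion of Kmt2a with Mllt3, together with GFP. New AML cells (n = 4) were GFP+ cells of the leukemia that arose in sublethally irradiated first recipients, and aggressive AML cells (n = 4) are described as cells of the same leukemia after 5 rounds of transplantation through mice that had not been irradiated. For RNA, cells of either kind were transplanted into C57BL/6 mice, and GFP+ cells were sorted from the bone marrow. The study gives the mice of this RNA sequencing as male. The sources name 1 leukemia and no further independent line, and the labels call the samples biological replicates without saying which mice they came from, so that the spread between libraries is that of these samples alone.

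MLL-AF9 holds myeloid progenitors in a self-renewing state, largely through Hoxa9 and Meis1, and the resulting blasts keep granulocyte and monocyte genes on. Genes that belong to neurons, epithelia, cilia or germ cells are normally kept at low levels in blood cells, by repressive chromatin and by the absence of the activators that drive them. Serial transplantation passes on the cells that engraft best.

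The libraries held 7805544 to 9697777 counts, so that 1 count was worth 0.103 to 0.128 CPM. The 10 myeloid leukemia markers examined were all present, with summed levels of 4769 to 5433 CPM in new AML and 4237 to 5793 CPM in aggressive AML, a sum that Mpo dominates. Of the 10, Kit, Meis1, Cd33 and Elane were called higher in aggressive AML by edgeR, and Csf1r (167 and 51.0 CPM, log2 fold change -1.70, SE 0.12, adjusted p = 3.76e-07) and Itgam (496 and 323 CPM, log2 fold change -0.61, SE 0.11, adjusted p = 0.00122) lower. Defining markers of other sorted or carried-over cells had no row to analyse, among them Ncr1 and Cd3e of NK and T cells, Ms4a1 and Pax5 of B cells, Tpsb2 of mast cells, Pf4 of megakaryocytes and Cdh5 of endothelium. The listed genes that did have a row summed, in new and then aggressive AML, to 71.6 to 80.5 and 102 to 120 CPM for B and plasma cells (7 of 12). The sums were 142 to 184 and 204 to 220 CPM for mast cells and basophils (5 of 11). They were 130 to 174 and 115 to 129 CPM for erythroid cells and megakaryocytes (8 of 12), most of it Tfrc (99.4 and 97.4 CPM). For endothelium and stroma (3 of 12) they were 364 to 443 and 349 to 375 CPM, most of it Pecam1 (367 and 320 CPM). Called higher by edgeR were Mzb1 (28.8 to 72.7 CPM, adjusted p = 4.58e-05), Mcpt8 (28.0 to 77.6 CPM, adjusted p = 2.02e-06) and Serpine2 (10.2 to 27.0 CPM, adjusted p = 2.97e-05). Sdc1 (5.71 to 1.39 CPM, adjusted p = 0.00526) and Hba-a1 (16.3 to 8.01 CPM, adjusted p = 0.048) were called lower by edgeR. The part of such cells in the levels of the set was not tested. The 4 Y-linked genes Ddx3y, Eif2s3y, Kdm5d and Uty summed to 2315 to 2574 counts in each new AML library and to 0 in the aggressive libraries, so that Y chromosome content and group cannot be told apart. These counts bear on whether both groups share an origin, and a difference in origin, or between cells that do and do not carry the Y chromosome, cannot be told apart from the effect of transplantation in any ratio given here. The labels give no sequencing batch. Across the 12494 genes tested with the quasi-likelihood test of edgeR, 8.15% were higher and 10.2% lower in aggressive AML at an adjusted p under 0.05.

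"Switched on", the working name of the set, fitted few of its genes. Of the 81 genes, 8 (9.88%) had at most 3 counts in every new AML library, and these were Cpne8, Gm32333, Klrb1b, Nos1, Gm33741, Adgrv1, Zfp385b and Fosl1. Cpne8 alone had 0 counts in all 4. A further 73 genes were above that level somewhere in new AML, 67 had at least 1 count in each new library, and 39 had a new AML mean of at least 1 CPM. The set is therefore called the raised genes below.

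The raised genes were mostly of low abundance. Their median level was 0.956 CPM in new AML and 5.55 CPM in aggressive AML, while the median over all rows in aggressive AML was 32.4 CPM. In aggressive AML, 35 genes had a mean under 5 CPM, 34 lay between 5 and 20 CPM, and 12 reached 20 CPM. Their CPM summed to 294 ± 22.4 (SD, n = 4) in new AML and 1212 ± 56.0 (SD, n = 4) in aggressive AML, and Mgam alone held 24.2% of the latter sum. The median ratio was 4.50. It was 3 to 4 for 26 genes, 4 to 5 for 27, 5 to 10 for 18, and at least 10 for 9 genes, while Cpne8 had a new mean of 0 and no ratio.

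**Figure D1:**
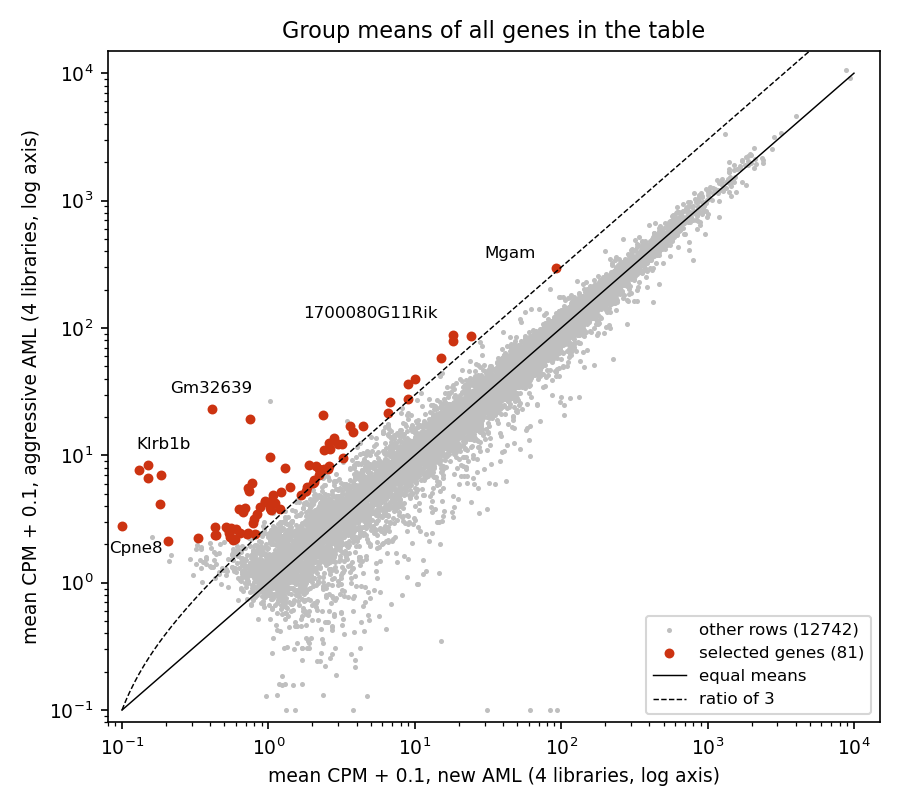
Mean CPM + 0.1 of every gene in new AML (x axis, log) and aggressive AML (y axis, log), 4 libraries each, with the 81 raised genes in red and the other 12742 rows in grey. The raised genes lie on or above the dashed curve, which marks a ratio of 3 between means before 0.1 was added, by construction, and most lie below 20 CPM in aggressive AML.

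Of the genes with the largest ratios, several were almost unread in new AML. As these are bulk samples, a gene read in more cells and a gene read more in each cell cannot be told apart. Gm32333, a long noncoding RNA gene (lncRNA), had 0, 1, 0 and 0 counts in new AML and 60, 60, 67 and 64 counts in aggressive AML. The ratio of its means was 254, with an exact 95% interval of 48.1 to 10735. This interval and those that follow cover counting error only. They take no account of the spread between libraries, or of the choice of these genes by the same difference. Every aggressive library was at a like level, and the new libraries were near empty.

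Klrb1b encodes an inhibitory lectin-like receptor known from natural killer cells, whose ligand is the product of Clec2d. It had 2, 0, 0 and 0 counts in new AML and 78, 80, 45 and 73 in aggressive AML, a ratio of 159 (interval 40.8 to 1235). Its ligand gene Clec2d, which is not in the set, went the other way, from a mean of 43.3 CPM to 17.4 CPM (log2 fold change -1.30, SE 0.28, adjusted p = 0.00429, edgeR). Of the other NK and T cell genes that were tested, Nkg7 (14.9 to 24.0 CPM, adjusted p = 0.0225) and Bcl11b (5.33 to 12.2 CPM, adjusted p = 0.0427) were called higher by edgeR, while Klrk1 and Lck were not. The summed level of the 5 NK and T cell genes in the table, Klrb1b included, was 24.9 to 36.0 CPM in new AML and 37.5 to 62.0 CPM in aggressive AML, and the part of carried-over lymphocytes in the Klrb1b level was not tested.

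Nos1, the neuronal nitric oxide synthase, had 2, 0, 0 and 0 counts in new AML and 50, 66, 45 and 57 in aggressive AML (ratio 126, interval 32.2 to 977). Gm33741, another lncRNA, had 1, 2, 0 and 0 counts against 64, 45, 57 and 66 (ratio 81.7, interval 28.2 to 407). Cpne8, a copine that binds membranes in a calcium-dependent way, had 0 counts in the 4 new libraries and 23, 16, 25 and 25 in the aggressive ones, at least 8.005-fold higher against a level of 3 counts per library. Nos1, Klrb1b and Gm32333 had all their new AML counts in 1 library, and the ratio of Gm33741 was 202 without new AML replicate 2. Nos1, Gm33741 and Cpne8 were seen in all 4 aggressive libraries at levels that stayed under 8 CPM.

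Other genes with large ratios were already read in new AML. Cldn11, a claudin of tight junctions in myelin and testis, averaged 0.667 ± 0.159 and 6.02 ± 3.17 CPM, with aggressive libraries that ran from 2.37 to 9.99 CPM. Tex14, a protein of the bridges between germ cells, averaged 0.624 ± 0.356 and 5.48 ± 1.83 CPM, and Nell1, a secreted protein of bone and nerve, 0.643 ± 0.447 and 5.17 ± 1.92 CPM. Here and below, paired means are those of new and then aggressive AML, ± SD over 4 libraries. Prox1, a homeobox factor of lens, liver and lymphatic vessels, averaged 1.20 ± 0.801 and 7.90 ± 1.16 CPM.

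The most abundant raised genes showed smaller ratios. Mgam, an intestinal maltase-glucoamylase that is also read in neutrophils, stood at 82.5, 103, 109 and 72.1 CPM in new AML and at 287, 312, 278 and 295 CPM in aggressive AML, a ratio of 3.20. The lncRNA 1700080G11Rik averaged 18.1 ± 6.83 and 87.7 ± 19.3 CPM, the protocadherin Pcdh7 24.1 ± 3.46 and 85.7 ± 14.4 CPM, and the synaptic calsyntenin Clstn3 18.1 ± 9.27 and 78.7 ± 10.3 CPM. Trpm2, a calcium channel opened by oxidative stress and known from phagocytes, averaged 15.1 ± 3.84 and 57.6 ± 5.14 CPM. Gm7972, Sec16b (a factor of vesicle export from the endoplasmic reticulum) and Stfa1 (a cysteine protease inhibitor of neutrophils) followed, at 9.97 ± 2.90 and 39.4 ± 3.73, 8.82 ± 1.94 and 36.4 ± 3.63 and 8.90 ± 3.83 and 27.8 ± 6.89 CPM. Stfa1 belongs to a family of near-identical stefin genes, whose reads the counting may have split. Mgam, Trpm2 and Stfa1 are genes that myeloid cells normally use, and all 3 were above 5 CPM in every new AML library.

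**Figure D2:**
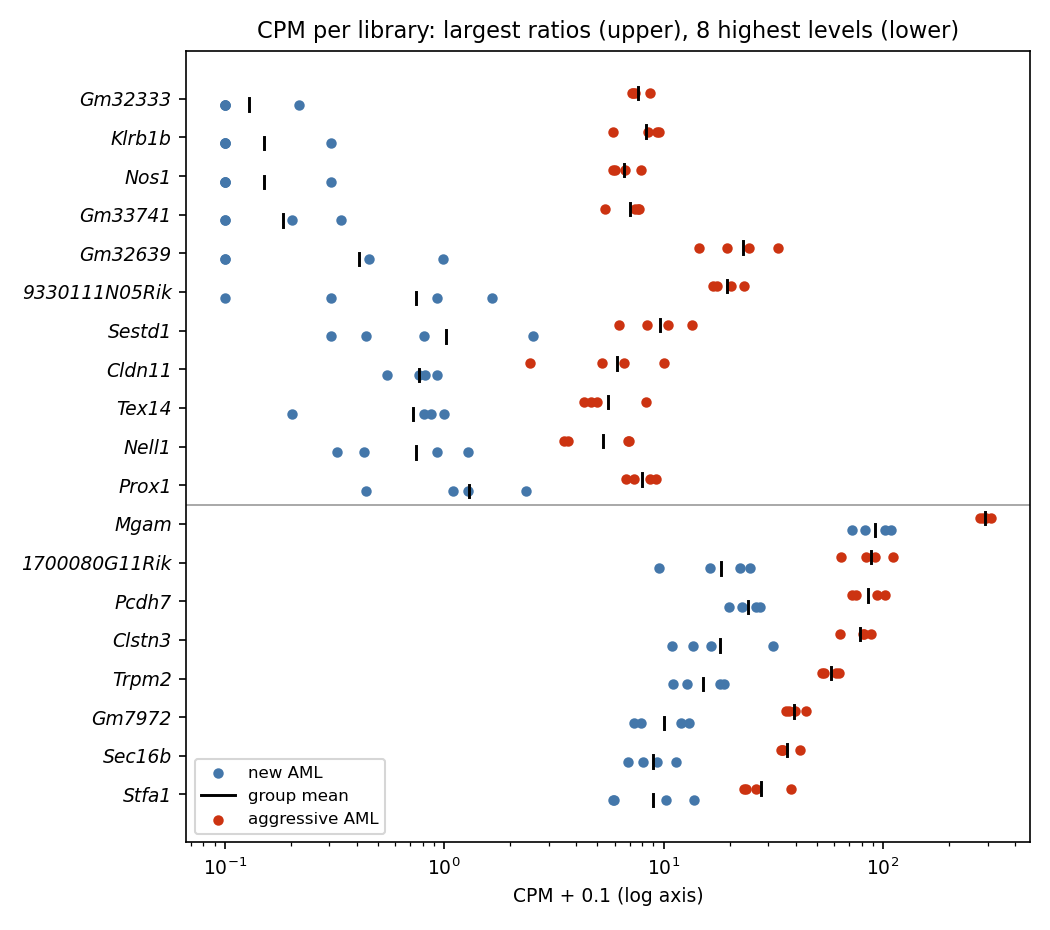
CPM + 0.1 (log axis) in each library for 11 of the 12 genes with the largest ratios among those with at least 5 CPM in aggressive AML (above the line) and the 8 with the highest levels (below it), new AML in blue, aggressive AML in red, group means as black ticks. The groups do not overlap for any gene, as the choice required, and new AML values at the left edge are libraries with 0 counts.

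By gene type, 80 of the 81 genes matched the RefSeq annotation of GRCm38.p6. Of the matched genes, 67 (83.75%) were protein coding and 13 (16.25%) were lncRNA, while over all matched rows lncRNA made up 6.38%. The difference was not seen at low abundance: among the 2265 rows with an aggressive mean of 2 to 10 CPM, lncRNA held 16.2%, and among the 59 raised genes in that range 15.5%. Above 10 CPM the raised lncRNA genes were 1700080G11Rik, Gm32639, 9330111N05Rik and Gm10451, and the shares there were not compared. The median genomic span of the raised genes was 32.7 kb against 20.4 kb over all matched rows. Spans over 100 kb were found for 26.25% of them against 10.4%, and in the range of 2 to 10 CPM for 22.4% against 10.9%.

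Among the 59 coding genes that could be given a role, 9 act on small GTPases or actin. They include Rhoj, a small GTPase, at 6.43 ± 2.65 and 21.3 ± 4.00 CPM, Dock9, a Cdc42 exchange factor, at 4.33 ± 1.74 and 16.9 ± 0.945 CPM, and Rapgef5, a Rap exchange factor, at 3.09 ± 1.33 and 12.1 ± 2.09 CPM. Another 9 belong to the extracellular matrix or to cell junctions, among them the basement membrane chains Col4a1 (0.588 ± 0.450 and 3.74 ± 0.525 CPM) and Lama5 (0.974 ± 0.612 and 4.74 ± 1.51 CPM) and the junction molecule F11r (0.450 ± 0.223 and 2.18 ± 0.473 CPM). The 7 receptors and channels include Oxtr, the oxytocin receptor (6.64 ± 1.598 and 26.1 ± 8.52 CPM), Acvr2a, an activin receptor (2.13 ± 0.333 and 7.66 ± 3.80 CPM), and Chrm4, a muscarinic receptor (0.441 ± 0.234 and 2.34 ± 0.996 CPM). The 6 transcription or chromatin factors were Prox1, Zfp385b, Sfmbt2, a Polycomb group protein (2.87 ± 0.946 and 12.1 ± 1.09 CPM), Irx2, a homeobox factor (2.49 ± 0.710 and 8.11 ± 2.29 CPM), Bhlhe40, a basic helix-loop-helix repressor (1.95 ± 0.800 and 6.25 ± 2.53 CPM), and Fosl1, a subunit of AP-1 (0.229 ± 0.163 and 2.15 ± 1.27 CPM). The 4 ubiquitin ligase components were the F-box proteins Fbxo17 and Fbxo27, the related Lrrc29, and Trim6.

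**Figure D3:**
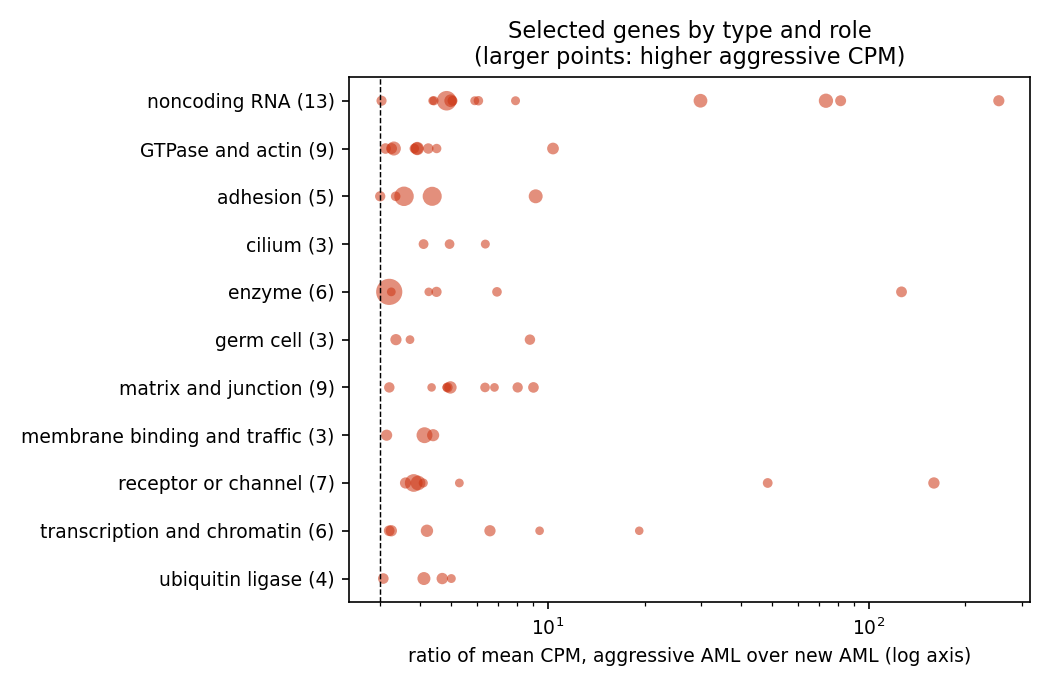
Ratio of mean CPM, aggressive over new AML (x axis, log), for raised genes in the noncoding class and in each role with at least 3 genes; the size of a point grows with the aggressive mean. No role stands clear of the others, and the ratios above 20 are those of 4 lncRNA genes, Nos1, Klrb1b and Adgrv1. Cpne8 is not drawn because its new mean was 0.

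By the tissue they are best known from, 16 coding genes are nerve genes, 5 belong to basement membrane and epithelium, 3 each to germ cells, cilia and blood, and 2 each to inner ear or eye and to liver or gut, while 25 have no single tissue. These groups were assigned by hand after the values were known, and no share over all coding genes of the table stands beside them. Some genes counted under nerve, such as Cldn11 and Nell1, are also known from other tissues. The gene lists that follow were drawn up apart from the tissue groups, but with the study's list of changed genes already read. Counts of called list genes are therefore not independent of the data. The lists do not match the groups in every case. Cldn11 is a nerve gene here and stands on the epithelial list. Gprc5b and Prox1 have no single tissue here and stand on the neuron and eye lists. The nerve genes were not accompanied by the genes that define neurons. Of 32 neuron and synapse genes that were listed, 18 were in the table and 9 of these were raised genes, among them Nos1, Clstn3, Chrm4, Lgi2 and Ptprt. Of the 7 other tested genes on the list, 3 were called higher, beside 8.15% of all tested genes. They were Gng3 (adjusted p = 0.0467), Dab1 (adjusted p = 0.0409) and Cntnap5b (adjusted p = 0.0141), all by edgeR. Nlgn2 (66.4 and 61.8 CPM), Clstn1 (10.6 and 8.23 CPM), Dlg4 (10.2 and 12.6 CPM) and Syp were not called. The median log2 fold change of the 7 genes was 0.31, against 0.0004 over all tested genes. Snap25, Syt1, Map2, Tubb3 and Rbfox3, which define neurons, had no row to analyse, and the synaptic vesicle gene Syp was at 1.92 CPM in new and 1.81 CPM in aggressive AML.

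The germline list gave a mixed picture, with Tex14, Pxt1 and Pabpc1l among the raised genes, 9 of 23 genes in the table, and opposite calls for the other members. Stag3, a cohesin subunit of meiosis, was higher in aggressive AML (83.6 to 202 CPM, log2 fold change 1.28, SE 0.09, adjusted p = 2.15e-07, edgeR), and Ddx4, the germ cell helicase Vasa, was lower (20.5 to 6.80 CPM, log2 fold change -1.58, SE 0.21, adjusted p = 0.000108, edgeR). Dazl, Sycp1 and Sycp3 had no row to analyse. The cilium genes were Cfap44, Cfap74 and Cc2d2a, which reached 2.64 to 4.13 CPM, and Foxj1, the factor that drives motile cilia, had no row. Of the 4 other tested genes on the cilium list, 1 was called higher, beside 8.15% of all tested genes. It was Ttc25 (1.69 to 5.75 CPM, adjusted p = 0.00569, edgeR), while Cfap43, Spag17 and Rsph1 were not called.

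Basement membrane and epithelial genes held 6 raised genes among the 15 in the table, namely Col4a1, Itgb4, Lama5, Cldn11, F11r and Upk1a. Of the other 7 that were tested, 4 were called higher (Col17a1, Eps8l2, Lgr6 and Padi3), beside 8.15% of all tested genes, while Lamb3 (adjusted p = 0.0757, edgeR), Cdh1 and Itga6 were not called. Epcam, Krt5, Krt8 and Krt14, which define epithelia, had no row. For eye genes the count of the other tested genes was 4 of 5 higher, for inner ear genes 2 of 5, and for liver and gut genes 3 of 4, beside 8.15% over all tested genes, while Cryaa, Alb and Apoa1 had no row. Because the lists were written with the study's changed genes known, these counts are not independent of the data.

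A few raised genes lay side by side in the genome. Of the 80 matched genes, 10 had another raised gene within 1 Mb, in 4 places. For comparison, 10.7% of the other matched genes of the table lay within 1 Mb of a raised gene. The place with the largest ratios was on chromosome 13, where 9330111N05Rik, Adgrv1 and Gm32639 fell within 1 stretch between Arrdc3 and Lysmd3. Gm32639 (chr13:81103709-81128868, GRCm38.p6, plus strand) lies inside the span of Adgrv1 (chr13:81095068-81633391, minus strand), and 9330111N05Rik (chr13:80964074-81079857, plus strand) ends 15.2 kb from it.

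Gm32639, an lncRNA, had 0, 3, 8 and 0 counts in new AML and 121, 164, 259 and 212 in aggressive AML, a ratio of 73.5. 9330111N05Rik, also an lncRNA, had 2, 7, 14 and 0 counts in new AML and 170, 147, 130 and 201 in aggressive AML, a ratio of 29.9. Adgrv1, the very large adhesion receptor of hair cells and photoreceptors, had 0, 0, 3 and 0 counts in new AML and 25, 32, 19 and 60 in aggressive AML, a ratio of 48.4 (interval 16.4 to 240). New AML replicate 3 was the highest new library for all 3 genes, and new AML replicate 4 had 0 counts in each. Without new AML replicate 3 the ratios of Gm32639 and 9330111N05Rik were 192 and 55.9, and Adgrv1 had 0 counts left in new AML. The strand setting of the counting is not given in the sources used here, so reads of Gm32639 and of Adgrv1, which lie on opposite strands, cannot be told apart where their exons meet.

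The genes on either side did not share these ratios. Arrdc3 averaged 14.98 ± 1.72 CPM in new AML and 11.3 ± 10.4 CPM in aggressive AML (adjusted p = 0.515, edgeR), and Lysmd3 17.3 ± 2.90 and 16.6 ± 2.71 CPM (adjusted p = 0.847, edgeR). Polr3g, the next gene, was called higher at 13.5 ± 1.97 and 19.6 ± 0.772 CPM (log2 fold change 0.54, SE 0.14, adjusted p = 0.0124, edgeR). Mblac2 and Cetn3 were not called.

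On chromosome 2, Sestd1 (chr2:77180340-77280627), a lipid-binding protein with a Sec14 domain, and Zfp385b (chr2:77410622-77817706), a zinc finger protein, lay 130 kb apart. Sestd1 was at 0.206, 0.712, 2.44 and 0.339 CPM in new AML and at 6.18, 10.4, 13.5 and 8.27 CPM in aggressive AML. Zfp385b had 3, 0, 0 and 1 counts in new AML and 20, 12, 15 and 21 in aggressive AML. Here too new AML replicate 3 held the highest new value of Sestd1, whose ratio was 10.4 with it and 22.9 without it, while Zfp385b was highest in replicate 1. The flanking Ttn (adjusted p = 0.0514, edgeR) and Cwc22 were not called, although Ttn averaged 1.08 ± 0.531 and 2.38 ± 0.519 CPM.

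**Figure D4:**
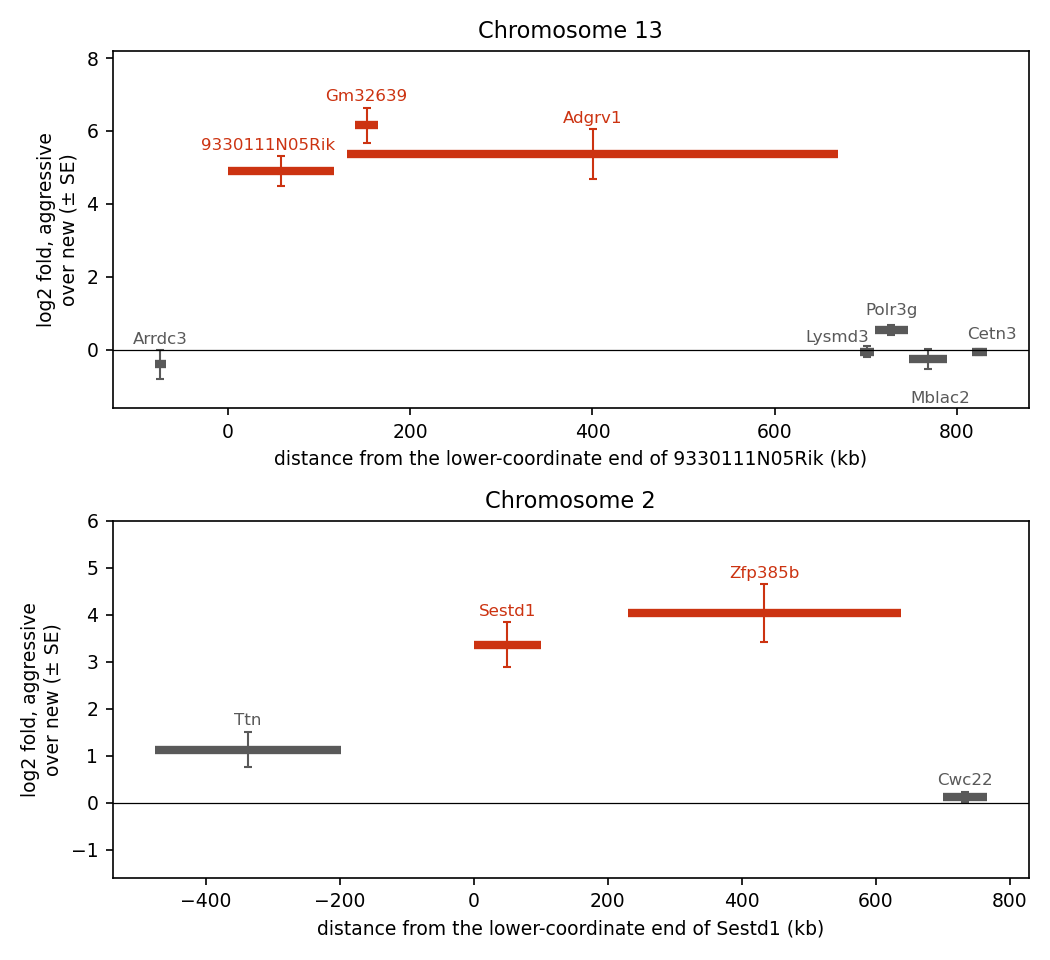
Fitted log2 fold change, aggressive over new AML, with its SE, drawn over the span of each gene on chromosome 13 (upper panel) and chromosome 2 (lower panel), against the distance in kb; raised genes in red, other tested genes within 200 kb in grey. The red spans sit between 3 and 7 on the log2 scale and the grey ones between -1 and 2.

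The other places held smaller ratios. On chromosome 4, Cfap74 and the lncRNA 5830444B04Rik overlapped (0.782 ± 0.704 and 3.86 ± 1.26 CPM, and 0.852 ± 0.461 and 4.30 ± 1.5 CPM), with Fam213b 493 kb away, and of the genes between and around them Mib2 was called, as lower (log2 fold change -0.78, SE 0.16, adjusted p = 0.00339, edgeR). On chromosome 7, Fbxo27 (0.504 ± 0.151 and 2.52 ± 2.02 CPM) and Fbxo17 (3.67 ± 1.20 and 15.1 ± 1.46 CPM) were 17.4 kb apart. Among the other tested genes within 200 kb of them, Rinl had the lowest adjusted p, 0.0629 by edgeR. Over all raised genes, 368 other tested genes lay within 200 kb, of which 33 (8.97%) were called higher and 38 (10.3%) lower, shares near the 8.15% and 10.2% of the whole table, with a median log2 fold change of 0.02.

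The bases around the start sites of the genes with the largest ratios are given from RefSeq, 250 bases before to 50 bases after the start, 5′ to 3′ on the strand of the gene in GRCm38.p6. They are shown because the 3 chromosome 13 genes lie together, and because Nos1 and Klrb1b were nearly unread in new AML. Capitals mark matches, on either strand, to the letters of 10 motifs whose shares follow.
9330111N05Rik: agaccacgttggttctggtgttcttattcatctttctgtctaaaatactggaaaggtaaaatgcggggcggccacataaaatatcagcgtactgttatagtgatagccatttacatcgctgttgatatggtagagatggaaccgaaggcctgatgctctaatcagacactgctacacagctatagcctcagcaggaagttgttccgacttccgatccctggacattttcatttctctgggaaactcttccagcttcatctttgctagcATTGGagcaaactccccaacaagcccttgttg
Gm32639: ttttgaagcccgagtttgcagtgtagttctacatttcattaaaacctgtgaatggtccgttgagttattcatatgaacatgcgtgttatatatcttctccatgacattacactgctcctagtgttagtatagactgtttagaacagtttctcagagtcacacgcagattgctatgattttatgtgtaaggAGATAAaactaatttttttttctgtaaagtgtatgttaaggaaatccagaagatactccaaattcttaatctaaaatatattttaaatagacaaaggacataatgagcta
Adgrv1: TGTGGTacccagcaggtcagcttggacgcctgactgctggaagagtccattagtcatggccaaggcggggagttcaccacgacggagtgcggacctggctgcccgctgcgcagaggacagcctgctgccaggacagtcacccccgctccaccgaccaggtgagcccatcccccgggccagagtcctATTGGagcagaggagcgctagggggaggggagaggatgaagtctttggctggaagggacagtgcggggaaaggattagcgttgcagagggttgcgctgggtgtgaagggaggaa
Nos1: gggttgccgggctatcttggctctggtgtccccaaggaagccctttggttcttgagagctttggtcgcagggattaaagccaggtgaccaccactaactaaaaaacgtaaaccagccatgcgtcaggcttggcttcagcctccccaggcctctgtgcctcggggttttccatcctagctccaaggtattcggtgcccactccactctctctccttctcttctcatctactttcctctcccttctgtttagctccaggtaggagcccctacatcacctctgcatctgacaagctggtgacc
Klrb1b: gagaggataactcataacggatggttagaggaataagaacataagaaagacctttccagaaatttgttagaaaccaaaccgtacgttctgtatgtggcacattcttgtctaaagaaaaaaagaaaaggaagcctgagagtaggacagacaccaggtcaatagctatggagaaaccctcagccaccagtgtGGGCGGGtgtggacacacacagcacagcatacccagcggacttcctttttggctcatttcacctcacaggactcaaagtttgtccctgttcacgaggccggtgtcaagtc
The 9330111N05Rik window lies at chr13:80963824-80964123, that of Gm32639 (the first of its 2 starts) at chr13:81103459-81103758, that of Adgrv1 at chr13:81633095-81633394, that of Nos1 at chr5:117866589-117866888 and that of Klrb1b at chr6:128826259-128826558. The 3 chromosome 13 windows held 8, 4 and 14 CG pairs, and those of Nos1 and Klrb1b 6 and 7.

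Such windows were given for 70 of the raised genes, 95 windows in all. Their median was 11 CG pairs, against 20 over the windows of all genes of the table and 7 over the 32851 windows of the annotation. In the range of 2 to 10 CPM the medians were near each other, 12 for raised genes (64 windows) and 13 for all rows. Windows of genes outside that range were not compared. Sestd1 and Acvr2a were at the upper end with 54 CG pairs, and Upk1a and 1 of the windows of Fam169b at the lower end with 0. GGGCGGG was in 40% of the windows of raised genes, 44.0% of those of table genes and 25.6% of all, CCAAT in 36.8%, 38.1% and 37.4%, and TATAAA in 9.47%, 7.25% and 13.6%. TGACTCA, the AP-1 letters, was in 5.26%, 3.56% and 5.20%, TGTGGT (RUNX) in 14.7%, 13.3% and 16.8%, and CCGGAAGT (ETS) in 3.16%, 8.08% and 3.89%. CACGTG was in 6.32%, 10.1% and 7.15%, TGACGTCA in 1.05%, 3.06% and 1.79%, and GAGGAAGT (PU.1) in 2.11%, 3.35% and 3.20%. AGATAA, which GATA factors bind, was in 13.7%, 6.94% and 11.2%, the only searched letters whose share in raised genes was above both others by more than 1 percentage point. These are counts of letters on either strand in windows that partly overlap, and nothing was tested.

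Since the same libraries chose the genes, the choice was repeated with the 2 libraries of 1 replicate number left out, and the ratio was read in those 2. The numbers do not pair the samples, and each left-out set is 1 library against 1, so that counts are given with no test. With replicate 1 left out, 105 genes were chosen, 99 were higher in the left-out aggressive library and 55 (52.4%) were at least 3-fold higher, against 1.42% of all tested genes. With replicate 2 left out, 92 were chosen, 90 were higher and 63 (68.5%) were at least 3-fold higher, against 1.83%. With replicate 3 the numbers were 88, 85 and 62 (70.5%, against 2.4%), and with replicate 4 they were 101, 97 and 62 (61.4%, against 1.48%). The shares over all tested genes cover genes of every level and were not matched to the low levels of most raised genes. The rounds share most of their libraries and are not independent of each other. Every left-out pair also carries the same difference in Y chromosome content.

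The median ratio in the left-out libraries was 3.17, 3.77, 4.46 and 3.56, compared with 4.20, 4.37, 4.39 and 4.25 in the 6 libraries of the choice. In 3 of the 4 rounds it was thus lower where the choice was not made. Over all tested genes the median ratio in the same left-out libraries was 0.979, 1.004, 0.981 and 0.997. Between 71 and 73 of the genes chosen in each round were among the 81.

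**Figure D5:**
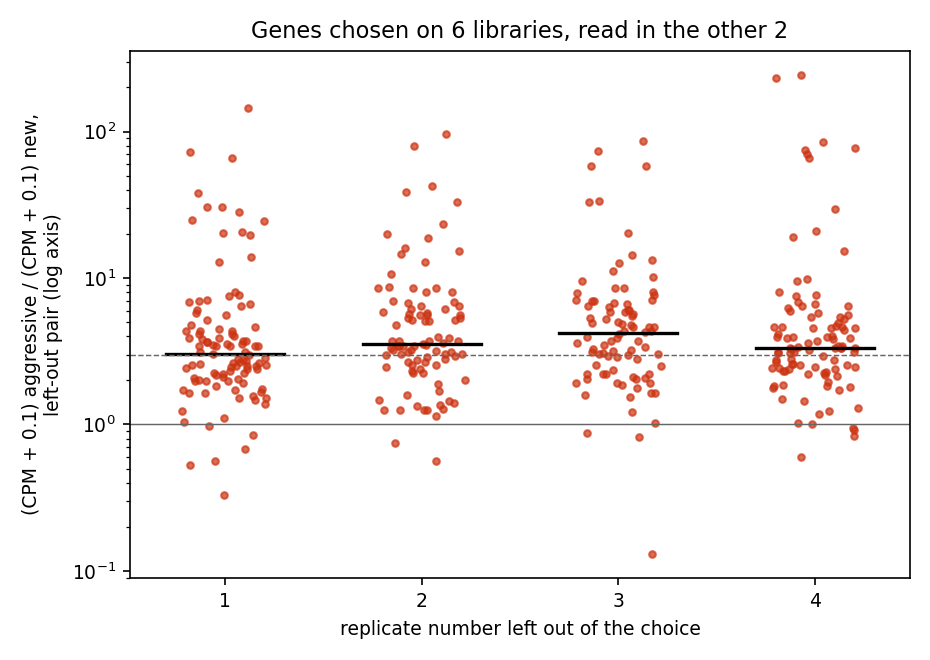
Ratio of CPM + 0.1, aggressive over new AML (y axis, log), in the 2 libraries left out of the choice, for the genes chosen on the other 6; black lines are medians, the solid line marks equal levels and the dashed line a ratio of 3. Most points lie above the solid line in each round, and the points below it are 6, 2, 3 and 4 genes for replicates 1 to 4.

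Within aggressive AML the raised genes varied to very different degrees. The coefficient of variation over the 4 libraries had a median of 24.8% and ran from 1.46% for the lncRNA Rbakdn (2.61, 2.60, 2.69 and 2.64 CPM) to 81.4% for Trim6 (5.23, 5.92, 18.4 and 3.79 CPM). It was under 15% for 22 genes and over 50% for 6. Replicate 3 was the highest aggressive library for 32 genes, replicate 2 for 24, replicate 4 for 15 and replicate 1 for 10. Fbxo27 (1.43, 1.18, 5.51 and 1.95 CPM) and Prrg4 (5.82, 9.59, 20.2 and 8.85 CPM), a vitamin K-dependent membrane protein, were, like Trim6, highest in replicate 3 by a wide margin.

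At the edges of the set, Zfp385b (2.03 CPM), Itgb4 (2.05 CPM) and Aspa (2.10 CPM) were the lowest raised genes, and Ak4, Trpm1 and 1700112J05Rik fell just short of 2 CPM with 1.97, 1.96 and 1.91. The smallest ratios were those of Pcdhgb2 (3.00), Fam213b (3.02) and A930003A15Rik (3.03), and Il20rb, Gm39749 and Cxcl2 just missed with 2.99, 2.98 and 2.98. A further 11 genes met both limits, but the values of the groups overlapped. Reads of 15 raised genes fall in spans that overlap another gene of the table, such as Itgb4 with Galk1 and Chrm4 with Mdk, and Pcdhgb2 shares its span with 5 other protocadherin genes, so that their counts are uncertain. In the edgeR fit 80 raised genes were tested and all 80 were called higher, which the choice largely fixes, and Itgb4 was not tested because it passed 1 CPM in too few libraries.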

How the data were processed

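Libraries were grouped from the sample labels. According to the methods of the study, polyadenylated RNA of sorted GFP+ cells was sequenced from both ends, aligned to mm10 with HISAT2 and counted per gene with Rsubread, and genes of low expression were left out at 1 CPM. The annotation and the strand setting are not given in the sources used here. The table deposited by the authors is named for CPM, but it holds whole read counts that sum to a different total in each library, and it was used as raw counts.

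CPM were recomputed from the column totals. The fit over all genes used edgeR 4.0.16 (R 4.3.3) on the counts, with TMM scaling, genes of at least 1 CPM in at least 4 libraries, the group alone as a term, and Benjamini-Hochberg adjustment at a threshold of 0.05. Alternatives to this test were limma 3.58.1, the tool of the study, here with a trend on log2(CPM + 1), and DESeq2 1.42.0. Other steps used Python 3.11.15. The fit was tested on simulated data. Fold intervals of genes with 1 to 3 counts in a group are exact binomial intervals. Gene types, positions and start windows are those of RefSeq for GRCm38.p6, which is the build mm10.

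The genes named one by one are the 12 with the largest ratio at 5 CPM or more, the 8 with the highest aggressive mean, those nearest the limits, list genes, and those within 1 Mb of another member with the tested genes within 200 kb. Other members are named for their type or role, and Clec2d was added after its values were seen. Some results that this rule selects are not reported here. The members, lists and roles were chosen with earlier results of these data known, and the tissue lists after the study's list of changed genes had been read. Alternatives changed the scaling, the limits, the filter, the test and the libraries. Within each group the replicates differed by more than counting error, and p-values measure only the spread between these samples.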

Additional observations from a re-analysis of the deposited data

Results flagged for a closer look

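In 162 groups of 4 libraries (81 genes in each of the 2 groups), 1 library lay far from the other 3 by Dixon's test in 15 cases (9.26%). Chance flags about 1 in 20 groups of normal values, a rate that does not hold for low counts or for values that chose the genes, and nothing is read from the share. Of these, 5 were in aggressive AML replicate 3, 3 each in aggressive AML replicate 2 and new AML replicate 2, 2 in new AML replicate 1, 1 each in aggressive AML replicate 4 and new AML replicate 3, and 0 in the other libraries.

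In aggressive AML replicate 3 the high values were those of Trim6 (18.45 CPM, others 3.79 to 5.92), Rem2 (9.865 CPM, others 4.25 to 4.97), Tex14 (8.199 CPM, others 4.26 to 4.87), Pabpc1l (4.484 CPM, others 1.49 to 1.66) and Gm32333 (8.584 CPM, others 7.10 to 7.35). In aggressive AML replicate 2, Sec16b (41.79 CPM, others 34.1 to 35.0) and Rhoj (27.23 CPM, others 18.5 to 19.99) were high, and Gm33741 was low (5.328 CPM, others 7.30 to 7.60). Rapgef5 was low in aggressive AML replicate 4 (8.96 CPM, others 12.9 to 13.3).

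In new AML replicate 2, Otogl (3.681 CPM, others 2.03 to 2.17) and A930003A15Rik (2.137 CPM, others 1.33 to 1.44) stood above the rest. The other 4 cases rest on 1 to 3 counts in a library beside 3 libraries with 0 counts, namely Gm32333 in new AML replicate 2 (0.1187 CPM), Nos1 and Klrb1b in new AML replicate 1 (0.2062 CPM each) and Adgrv1 in new AML replicate 3 (0.3324 CPM).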

How the results depend on the processing

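The set held 81 genes as chosen, 206 with a ratio of at least 2, and 46 with a mean of at least 5 CPM. A ratio of at least 4 gave 55, a mean of 1 CPM 115, overlap allowed 92, medians 79, and scaling by TMM or DESeq2 size factors 84 and 85, both of which contained all 81. Leaving out a library, or both libraries of 1 number (an alternative chosen after seeing the data), gave 80 to 105, and 55 of the 81 stayed under every scaling and every left-out library. The number of the 81 called near empty in new AML was 8 at 3 counts or fewer in each library, 1 at 0 counts in all and 19 at a mean under 0.5 CPM, and leaving out a new library gave 8 to 9 by the first definition. Genes called over the table numbered 2296, with 2295 under RLE factors, 2355 without the filter, 2321 with limma and 2538 with DESeq2. Leaving out 1 library gave 1466 to 2324, the lowest without new AML replicate 2. With 1 aggressive library left out, 55 to 56 of the raised genes were called, since fewer then pass the filter. Same-numbered libraries deviated together with correlations of 0.0962, -0.0396, -0.0641 and 0.202, so the numbers do not pair them, and a replicate block gave 2367 calls. Ratios of the 20 genes named by size or level moved beyond the replicate spread in 3 of 197 settings (Gm33741, Gm32639 and Sestd1, each without 1 new AML library), besides Gm32333 without new AML replicate 2 and Klrb1b and Nos1 without new AML replicate 1, where the new mean becomes 0 and no ratio exists. Near 2 CPM depth is the limit, since Zfp385b rests on 12 to 21 counts per aggressive library.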
